A study of Homo sapiens with 6 samples.

Results

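The human mitochondrial genome is transcribed into 37 annotated RNAs, and all 37 had a row in the gene count table of this study. They were chosen as the rows whose symbol starts with MT-, and they are 37 of 60612 rows. By class they are 13 mRNAs, 2 rRNAs and 22 tRNAs. Each passed the filter on low counts. RNA was sequenced from U251, an established human glioma cell line, in 3 libraries labelled TEAD3 knockdown and 3 labelled normal control. TEAD3 encodes a DNA-binding transcription factor of the Hippo pathway. The cells were transfected transiently. A plasmid vector and siRNA are both mentioned in the labels, which leave out what the control cells received. Separate cultures for the 3 libraries of a group are not stated, so p-values measure only library-to-library spread, which may be technical. In bulk samples, fewer cells that carry a transcript and less RNA per cell cannot be told apart.

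As background, the mitochondrial RNA polymerase POLRMT, with TFAM and TFB2M, copies both strands of the circular genome into long precursors. The tRNAs sit between most of the other genes and mark the places where the precursors are cut, by RNase P (TRMT10C, HSD17B10 and PRORP) at their 5′ ends and by ELAC2 at their 3′ ends. The poly(A) polymerase MTPAP then adds short tails to the mRNAs, and the LRPPRC and SLIRP proteins bind and stabilise them. The rRNAs MT-RNR1 and MT-RNR2 form the mitochondrial ribosome, which makes the 13 encoded proteins, all of them subunits of respiratory complexes I, III, IV and V. Most genes are read from the heavy strand, here 12 mRNAs, both rRNAs and 14 tRNAs, which lie on the plus strand of the reference. The light-strand transcripts are MT-ND6 and 8 tRNAs. Oligo(dT) beads, used here to capture RNA, select for a poly(A) tail, which mature tRNAs lack and which MT-ND6 mRNA is known to carry poorly.

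The tRNAs on which the results below turn are shown with the anticodon in capitals, in DNA letters, 5′ to 3′, from the GENCODE release 29 transcripts on GRCh38. The first 4 took most of the tRNA counts, MT-TF was above every control in each knockdown library, and MT-TP was below every control. A search for a 7-base loop between 5-base arms gave an anticodon that matched the gene's name for 21 of the 22 tRNAs, with 4 or 5 pairs between the arms (4 in MT-TF).
MT-TA (alanine, chrM:5587-5655, minus strand): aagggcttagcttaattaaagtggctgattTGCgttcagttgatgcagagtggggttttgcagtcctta
MT-TN (asparagine, chrM:5657-5729, minus strand): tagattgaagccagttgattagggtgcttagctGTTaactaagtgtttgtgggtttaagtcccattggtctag
MT-TC (cysteine, chrM:5761-5826, minus strand): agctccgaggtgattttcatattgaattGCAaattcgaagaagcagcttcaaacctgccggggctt
MT-TY (tyrosine, chrM:5826-5891, minus strand): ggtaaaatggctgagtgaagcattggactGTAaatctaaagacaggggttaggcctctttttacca
MT-TF (phenylalanine, chrM:577-647, plus strand): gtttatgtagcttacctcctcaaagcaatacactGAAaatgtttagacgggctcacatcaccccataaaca
MT-TP (proline, chrM:15956-16023, minus strand): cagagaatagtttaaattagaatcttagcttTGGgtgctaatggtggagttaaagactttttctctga

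Neighbouring genes of this compact genome share bases, and a read there can be counted for either. MT-ATP8 and MT-ATP6, 2 subunits of the ATP synthase read from 1 mRNA in different frames, share 46 bases, shown with the start codon of MT-ATP6 and the stop codon of MT-ATP8 in capitals.
MT-ATP8 and MT-ATP6 (chrM:8527-8572, plus strand): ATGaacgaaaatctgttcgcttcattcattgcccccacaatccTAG
MT-ND4L and MT-ND4, also read from 1 mRNA, share 7 bases, and MT-TI and MT-TQ share 3 bases on opposite strands. MT-TC shares 1 base with MT-TY, and MT-CO3 shares 1 base with MT-ATP6, each on the same strand. The libraries were strand-marked, but the strand setting of the counting is not given in the sources used here. As background, the mRNA of MT-CO1 runs on through the region opposite MT-TS1, and that of MT-ND5 through the region opposite MT-ND6. The rows MT-TS1 and MT-ND6 are therefore uncertain where strand was not used.

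Library totals lay between 63145768 and 64808615 counts in the knockdown and between 58344026 and 63685272 in controls, so that 3 counts, taken as the floor, correspond to between 0.0457 and 0.0529 CPM (the count scaled to library size after TMM normalisation), a limit that covers counting error only. TEAD3 was at 4.70, 8.35 and 6.08 CPM in knockdown replicates 1 to 3, against 14.9, 20.3 and 21.0 CPM in control replicates 1 to 3. It was below every control in each knockdown library (log2 fold change -1.55, SE 0.218, edgeR adjusted p = 0.0114). Of 9 glioma or astrocyte markers, VIM, NES, SOX2, SOX9 and CD44 were expressed in both groups, S100B, AQP4 and ALDH1L1 averaged under 1 CPM, and GFAP was at 0.572 CPM in the knockdown and 1.46 CPM in controls. The 9 markers summed to between 4379 and 4937 CPM in the knockdown and to between 5315 and 5882 CPM in controls, ranges that did not overlap. Most of the sum was VIM, at 3679 ± 262 CPM in the knockdown and 4484 ± 311 CPM in controls, while NES averaged 186 and 185 CPM. VIM, SOX2, SOX9 and GFAP were each below every control in the knockdown, as 10.6% of all genes were, and the other markers overlapped. None of the 8 tested was called. Summed markers of oligodendrocytes, leukocytes and endothelium stayed at or below 3.51 CPM in each library, those of neurons lay between 20.8 and 25.7 CPM, and those of epithelium, mostly KRT8 and KRT18, between 304 and 396 CPM. No marker of these lists was called, and their part in the results was not tested.

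Per length, the mitochondrial mRNAs spanned more than an order of magnitude. MT-CO2, a core subunit of complex IV (cytochrome c oxidase), had the highest level of the 37 in each library, at 16902 ± 1856 CPM per kilobase in the knockdown and 17158 ± 821 CPM per kilobase in controls (SD, n = 3 each). The large rRNA MT-RNR2 came next among mRNAs and rRNAs, with 14796 ± 189 CPM per kilobase in the knockdown and 14617 ± 367 CPM per kilobase in controls. MT-CO1 followed at 7960 ± 1131 and 7880 ± 649 CPM per kilobase in knockdown and control. The level of MT-CO2 was 2.06 to 2.28 times that of MT-CO1 in the 6 libraries; both are cut from the heavy-strand precursor.

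Below these, several neighbours in the order of levels could not be told apart. MT-CO3 and MT-RNR1 were at 5898 ± 364 and 5872 ± 65.7 CPM per kilobase in the knockdown and at 5571 ± 399 and 5553 ± 611 CPM per kilobase in controls, and MT-CO3 was the higher in 2 of 6 libraries. MT-ATP8 was at 5286 ± 760 and 4836 ± 809 CPM per kilobase in knockdown and control, and MT-ATP6 at 4674 ± 666 and 4391 ± 514. The level per length of MT-ATP8 was 1.04 to 1.15 times that of MT-ATP6, with MT-ATP8 higher in 6 of 6 libraries. MT-ND4L was at 4449 ± 1257 and 4220 ± 800 CPM per kilobase and MT-ND4 at 4660 ± 925 and 4355 ± 479, and MT-ND4L had 0.834 to 1.02 times the level of MT-ND4. The pairs read from 1 mRNA thus lay close together per length, but this was not particular to them. MT-ATP6, read from another mRNA than MT-ND4, had 0.955 to 1.09 times the level of MT-ND4. MT-ND3 was at 4266 ± 725 CPM per kilobase in the knockdown and 3094 ± 222 in controls.

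MT-CYB (2827 ± 464 and 2583 ± 302 CPM per kilobase in knockdown and control) lay above MT-ND2 (2140 ± 312 and 2010 ± 150) in 6 of 6 libraries. MT-ND2 and MT-ND1 (2102 ± 324 and 1887 ± 320) were not separated in every library. The lowest levels were those of the light-strand mRNA MT-ND6 (1043 ± 143 and 999 ± 97.8 CPM per kilobase in knockdown and control) and of MT-ND5 (1017 ± 189 and 971 ± 136), with MT-ND6 the higher in 3 of 6 libraries. MT-TC and MT-TN averaged 8723 ± 1508 and 8622 ± 1589 CPM per kilobase in the knockdown and 6584 ± 1220 and 6476 ± 1357 CPM per kilobase in controls, around the level of MT-CO1, while MT-TW averaged 11.3 ± 5.61 in the knockdown and 7.49 ± 1.64 in controls. A fragment longer than a tRNA can be counted on its row, so levels per length of tRNA rows are not directly comparable with those of mRNAs.

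**Figure D1:**
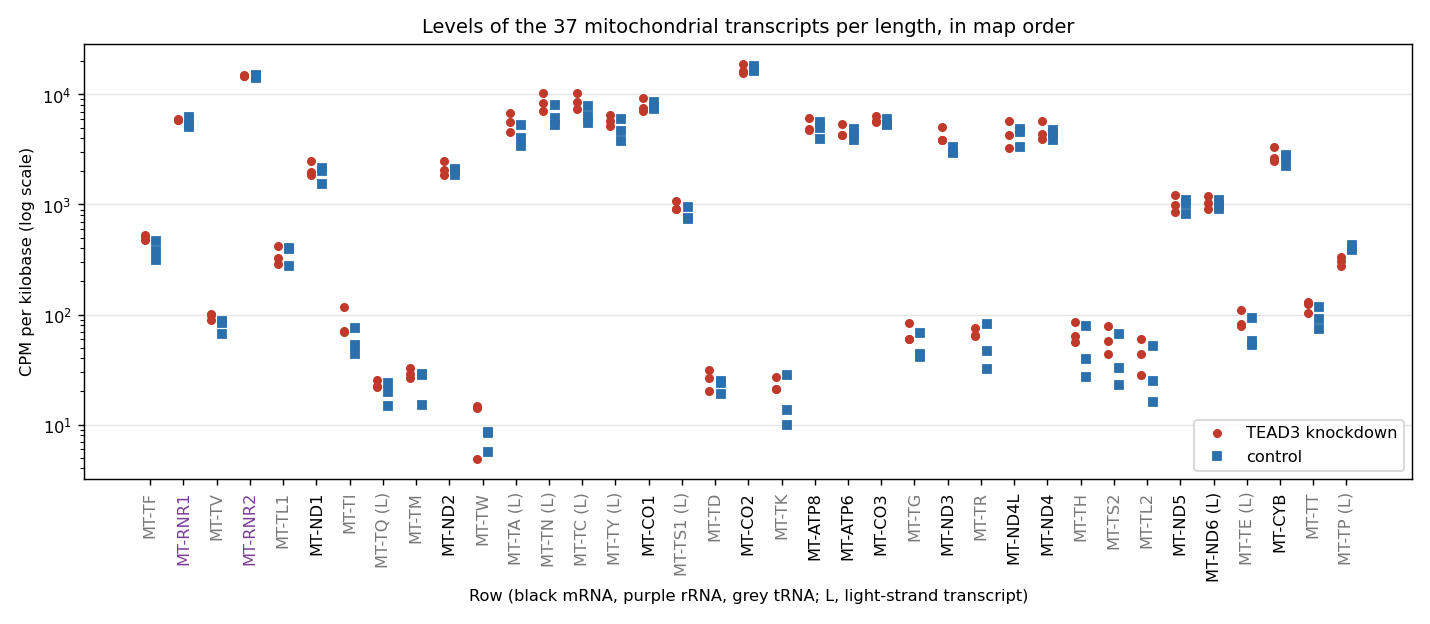
Level per length (TMM-normalised CPM per kilobase, log scale) of the 37 mitochondrial transcripts in the order of the map, with 1 circle per TEAD3 knockdown library and 1 square per control library. MT-CO2 and MT-RNR2 had the highest levels, MT-TA, MT-TN, MT-TC and MT-TY stood in the range of the mRNAs, MT-TS1 overlapped the lowest mRNAs, and the other tRNA rows lay below.

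The share of all counts that fell on mitochondrial transcripts overlapped between the groups. It was 7.74%, 8.96% and 8.01% in knockdown replicates 1 to 3, against 7.61%, 8.28% and 8.00% in control replicates 1 to 3. The means were 8.23% ± 0.640 and 7.96% ± 0.336 in knockdown and control (SD, n = 3 each), a difference of 0.27 percentage points (exact two-sided permutation p = 0.6, where 3 against 3 cannot go below 0.1). Without knockdown replicate 2, the library with the highest share, the difference was -0.0916 percentage points. The 13 mRNAs held 62.5% ± 3.22 of the mitochondrial counts in the knockdown and 62.5% ± 0.869 in controls, the rRNAs 34.8% ± 2.71 and 35.4% ± 1.14, and the tRNA rows 2.67% ± 0.589 and 2.12% ± 0.284.

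None of the 37 transcripts was called by edgeR (adjusted p under 0.05 over 17723 genes), where 0.655% of all tested genes were (0.451% higher and 0.203% lower). Before adjustment, p was under 0.05 for 5 higher rows, MT-ND3, MT-TF, MT-TA, MT-TN and MT-TC, and for 1 lower row, MT-TP. That is 6 of 37, beside 15.6% of all genes. DESeq2 called MT-ND3 as higher and MT-TP as lower, beside 5.97% of all genes with an adjusted p (3.46% higher and 2.51% lower). The groups did not overlap for 3 higher rows, MT-ND3, MT-TF and MT-TV, and for 1 lower row, MT-TP, where 11% and 10.6% of all genes were higher and lower without overlap, 21.6% in all. Fold changes, knockdown over control, were above 0 for 34 of the 37 rows (49.8% of all genes). The median log2 fold change was 0.09 for the mRNAs, 0.05 for the rRNAs and 0.40 for the tRNA rows, and -0.0012 over all genes tested. With the other scalings of the libraries, 11 or 12 of 13 mRNAs were above 0. With a correction of each library for transcript length and GC content, chosen after seeing the data, 2 of 13 mRNAs and 18 of 22 tRNA rows were above 0, with medians of -0.10 and 0.06. The 22 tRNA rows are shorter than any gene used to fit this correction, and were corrected with the value at the edge of its range. Without knockdown replicate 2, 4 of the 13 mRNAs were above 0, with a median of -0.03. Without control replicate 1, 8 of the 13 were, and the medians were 0.0054 for the mRNAs, 0.0099 for the rRNAs and 0.20 for the tRNA rows. Over all 6 left-out libraries the tRNA median lay between 0.20 and 0.57.

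**Figure D2:**
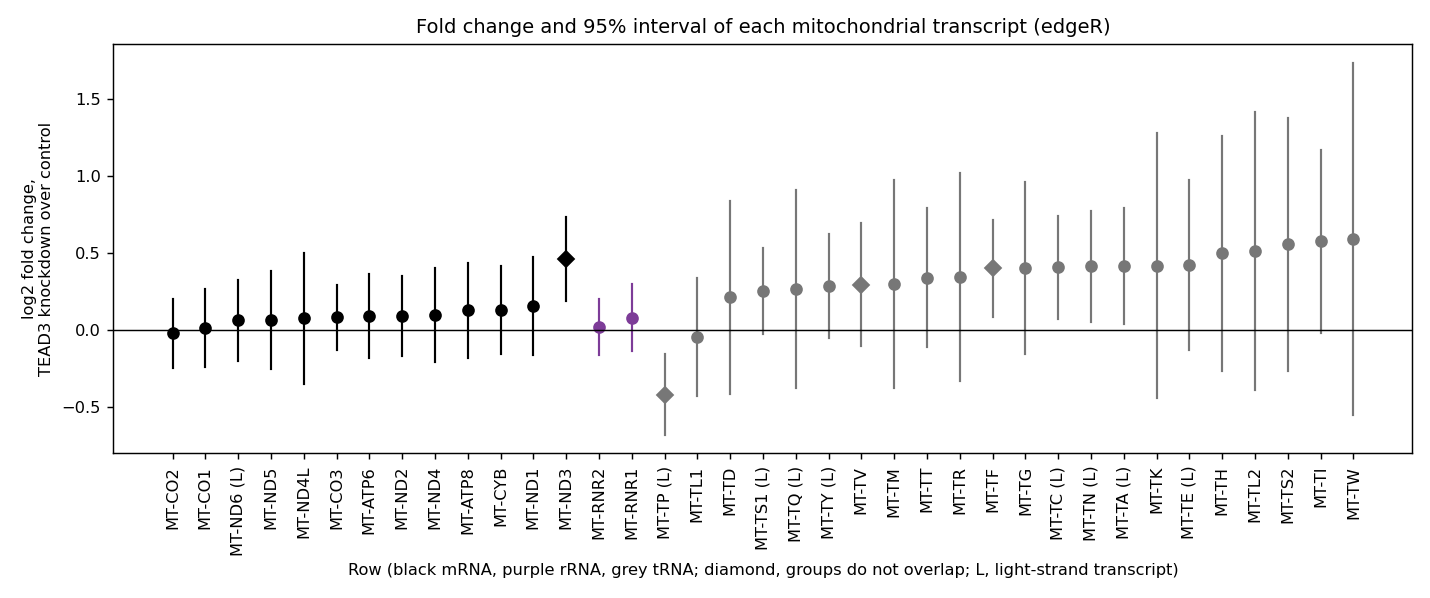
Log2 fold change of each mitochondrial transcript, TEAD3 knockdown over control, from edgeR with its 95% interval, by class and then by size. Diamonds mark the 4 rows whose groups did not overlap, MT-ND3, MT-TF and MT-TV above 0 and MT-TP below 0, and no row passed the test after adjustment.

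Complex I (NADH dehydrogenase) takes 7 of its subunits from this genome, and among them MT-ND3, a small membrane subunit, had the largest fold change. It was at 1766, 1336 and 1326 CPM in knockdown replicates 1 to 3, against 1008, 1156 and 1047 CPM in control replicates 1 to 3. Each knockdown library was above each control, and knockdown replicate 1 was the highest. The means were 1476 ± 251 CPM in the knockdown and 1071 ± 77.0 CPM in controls (SD, n = 3 each), a 1.38-fold difference (log2 fold change 0.46, SE 0.124, 95% interval 0.19 to 0.74, edgeR adjusted p = 0.121). DESeq2 gave 0.47 with SE 0.123 and an adjusted p of 0.00641. Without knockdown replicate 1 the log2 fold change was 0.32, and with the length and GC correction it was 0.17 (edgeR adjusted p of 0.345 and 0.341). As a share of the mRNA counts, which is free of the scaling between libraries, MT-ND3 had 3.72%, 2.24% and 2.75% in knockdown replicates 1 to 3, against 2.22%, 2.15% and 2.11% in control replicates 1 to 3. The groups did not overlap, and knockdown replicate 2 lay just above the controls. The exact two-sided permutation p of these shares was 0.1, the value that any 3 against 3 without overlap gives. The shares come from the same counts as the fold change and are given as a description, not as separate support.

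The other complex I mRNAs overlapped between the groups. MT-ND1, in the membrane arm next to the quinone site, was at 1902, 2358 and 1768 CPM in the knockdown and 1459, 2041 and 1911 CPM in controls. MT-ND2, one of the proton-pumping subunits, was at 2163, 2582 and 1943 CPM in the knockdown and 1917, 2159 and 2208 CPM in controls. Both were highest in knockdown replicate 2 and lowest in control replicate 1. MT-ND4L was at 972, 1715 and 1278 CPM in the knockdown and 984, 1433 and 1343 CPM in controls. MT-ND4, a proton-pumping subunit, was at 5406, 7852 and 6005 CPM in the knockdown and 5265, 6542 and 6198 CPM in controls. For this pair, too, knockdown replicate 2 was the highest library, and the other knockdown libraries lay within or below the range of the controls. MT-ND5, the subunit at the far end of the membrane arm, was at 1534, 2210 and 1782 CPM in the knockdown and 1488, 1971 and 1818 CPM in controls. MT-ND6, the only mRNA from the light strand, was at 542, 625 and 475 CPM in the knockdown and 477, 579 and 517 CPM in controls. The log2 fold changes of these 6 genes were 0.16, 0.09, 0.08, 0.10, 0.07 and 0.06, with edgeR adjusted p between 0.665 and 0.907.

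For transcripts of complexes III, IV and V the groups overlapped too. MT-CYB, cytochrome b of complex III, was at 2830, 3827 and 3020 CPM in the knockdown and 2556, 3205 and 3081 CPM in controls (0.13 on the log2 scale, edgeR adjusted p = 0.695). Knockdown replicate 2 was the only knockdown library above every control. MT-CO1, the catalytic subunit of complex IV, was at 10936, 14247 and 11642 CPM in the knockdown and 11374, 13280 and 11800 CPM in controls. MT-CO2, which takes electrons from cytochrome c, was at 11065, 13004 and 10614 CPM in the knockdown and 11268, 12358 and 11581 CPM in controls. MT-CO3 was at 4487, 4952 and 4433 CPM in the knockdown and 4262, 4719 and 4122 CPM in controls. For MT-CO1 and MT-CO2, knockdown replicates 1 and 3 were both within or below the range of the controls. The log2 fold changes of the 3 complex IV genes were 0.01, -0.02 and 0.08, with edgeR adjusted p of 0.977, 0.958 and 0.745. MT-ATP8 was at 992, 1275 and 1015 CPM in the knockdown and 823, 1156 and 1023 CPM in controls (0.13, edgeR adjusted p = 0.722). MT-ATP6, part of the proton channel of ATP synthase, was at 2914, 3707 and 2927 CPM in the knockdown and 2613, 3304 and 3054 CPM in controls (0.09, edgeR adjusted p = 0.795). In all, knockdown replicate 2 had the highest of the 6 levels for 12 of the 13 mRNAs, MT-ND3 being the exception, and control replicate 1 was the lowest control for 12 of 13. A missed threshold does not show equal levels: the upper 95% bounds of the 12 mRNAs other than MT-ND3 lay between a log2 fold change of 0.20 (MT-CO2) and 0.50 (MT-ND4L), and the lower bounds between -0.35 (MT-ND4L) and -0.13 (MT-CO3).

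The rRNA levels overlapped between the groups. MT-RNR2, the large-subunit rRNA, was at 22802, 23017 and 23384 CPM in the knockdown and 22142, 23231 and 22993 CPM in controls. Its log2 fold change was 0.02 (95% interval -0.16 to 0.20, edgeR adjusted p = 0.958). MT-RNR1, the small-subunit rRNA, was at 5569, 5563 and 5674 CPM in the knockdown and 4867, 5961 and 5065 CPM in controls. Control replicate 2 was above every knockdown library and the other 2 controls were below them (0.08, 95% interval -0.14 to 0.30, edgeR adjusted p = 0.762). As background, the tails of mitochondrial rRNAs are short, and their counts after oligo(dT) capture need not follow their total level.

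The tRNA rows held between 21 and 46859 counts in a library, and 4 of them dominated. MT-TA, MT-TN, MT-TC and MT-TY, adjacent light-strand tRNAs between MT-ND2 and MT-CO1, made up 90.5% ± 1.23 of the tRNA counts in the knockdown and 89.4% ± 0.343 in controls. They had at least 15365 counts in each library, while no other tRNA row passed 4671. Their summed level was 2332, 1662 and 1939 CPM in knockdown replicates 1 to 3, against 1238, 1858 and 1444 CPM in control replicates 1 to 3. Knockdown replicates 1 and 3 were above every control, and knockdown replicate 2 was below control replicate 2. MT-TN, the most abundant, was at 752, 522 and 615 CPM in the knockdown and 389, 582 and 448 CPM in controls (log2 fold change 0.41, SE 0.163, edgeR adjusted p = 0.257). MT-TC was at 683, 486 and 559 CPM in the knockdown and 364, 522 and 417 CPM in controls (0.41, edgeR adjusted p = 0.238). MT-TA was at 466, 314 and 384 CPM in the knockdown and 234, 363 and 275 CPM in controls (0.42, edgeR adjusted p = 0.277). In these 3 rows the 6 libraries stood in the same order. MT-TY was at 431, 341 and 381 CPM in the knockdown and 250, 391 and 305 CPM in controls (0.29, edgeR adjusted p = 0.400), and there only knockdown replicate 1 was above every control. Without control replicate 2, MT-TA had 0.60 (edgeR adjusted p = 0.0682), and without knockdown replicate 1 it was 0.27 (0.666). With the length and GC correction it was 0.14, and those of MT-TN, MT-TC and MT-TY were 0.12, 0.14 and 0.0081.

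RNAs that carry no poly(A) tail differed between the same libraries. RN7SL1, a signal recognition particle RNA, was at 60.8, 14.4 and 79.8 CPM in knockdown replicates 1 to 3, against 14.7, 34.5 and 17.6 CPM in control replicates 1 to 3. RN7SL2 was at 36.5, 13.3 and 51.7 CPM in the knockdown and 9.42, 28.2 and 11.1 CPM in controls, and RPPH1, the RNA of nuclear RNase P, at 4.56, 1.76 and 7.01 CPM in the knockdown and 1.49, 3.12 and 1.6 CPM in controls. In each of these, as in MT-TA, MT-TN, MT-TC and the sum of the 4 tRNA rows, knockdown replicates 1 and 3 were above every control and control replicate 2 was the highest control. Of 10 RNAs listed, 9 were in the table and 6 were tested. All 6 were above 0 (49.8% of all genes), with a median log2 fold change of 1.05. None was called by edgeR or DESeq2, beside 0.655% and 5.97% of all genes. Before adjustment, 3 were higher with p under 0.05 by edgeR (8.15% of all genes). RN7SK had the same pattern, at 12.6, 5.76 and 19.2 CPM in the knockdown and 6.34, 10.4 and 4.99 CPM in controls. The pattern was not shared by all 6. RMRP was at 2.15 CPM in knockdown replicate 1, against 2.31 CPM in control replicate 2. SNORD3A was at 1.04, 0.937 and 0.429 CPM in the knockdown and 0.701, 0.159 and 0.3 CPM in controls. The part of RN7SL1, RN7SL2, RN7SK and RPPH1 in the values of MT-TA, MT-TN and MT-TC was not tested.

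Among the other tRNA rows, the groups did not overlap for 3. MT-TF, the first gene after the heavy-strand promoter, was at 37.6, 36.3 and 34.1 CPM in knockdown replicates 1 to 3, against 22.0, 32.9 and 26.9 CPM in control replicates 1 to 3. Each knockdown library was above each control (log2 fold change 0.40, SE 0.144, edgeR adjusted p = 0.219), and the row was called only without control replicate 2 among the fits run (0.55, edgeR adjusted p = 0.0426). MT-TV, which lies between the rRNA genes, was at 6.16, 7.04 and 6.87 CPM in the knockdown and 4.63, 5.73 and 6.01 CPM in controls, with the lowest knockdown library close to the highest control (0.29, edgeR adjusted p = 0.474).

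MT-TP, the light-strand proline tRNA next to the control region, differed in the opposite direction. It was at 20.6, 22.5 and 18.9 CPM in knockdown replicates 1 to 3, against 26, 27.6 and 29.3 CPM in control replicates 1 to 3. Each knockdown library was below each control, and the means were 20.7 ± 1.78 and 27.6 ± 1.63 CPM in knockdown and control (SD, n = 3 each). The knockdown level was 0.748 times the control level (log2 fold change -0.42, SE 0.118, 95% interval -0.68 to -0.16, edgeR adjusted p = 0.137). The log2 fold change stayed between -0.48 and -0.36 over the 6 left-out libraries and was never called there. It was called by DESeq2 (-0.41, adjusted p = 0.0370) and by edgeR with the length and GC correction (-0.73, adjusted p = 0.0175). At 68 bases, MT-TP is shorter than any gene used to fit that correction. MT-TP thus had the sign opposite to the other light-strand tRNAs in the fits with all 6 libraries.

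**Figure D3:**
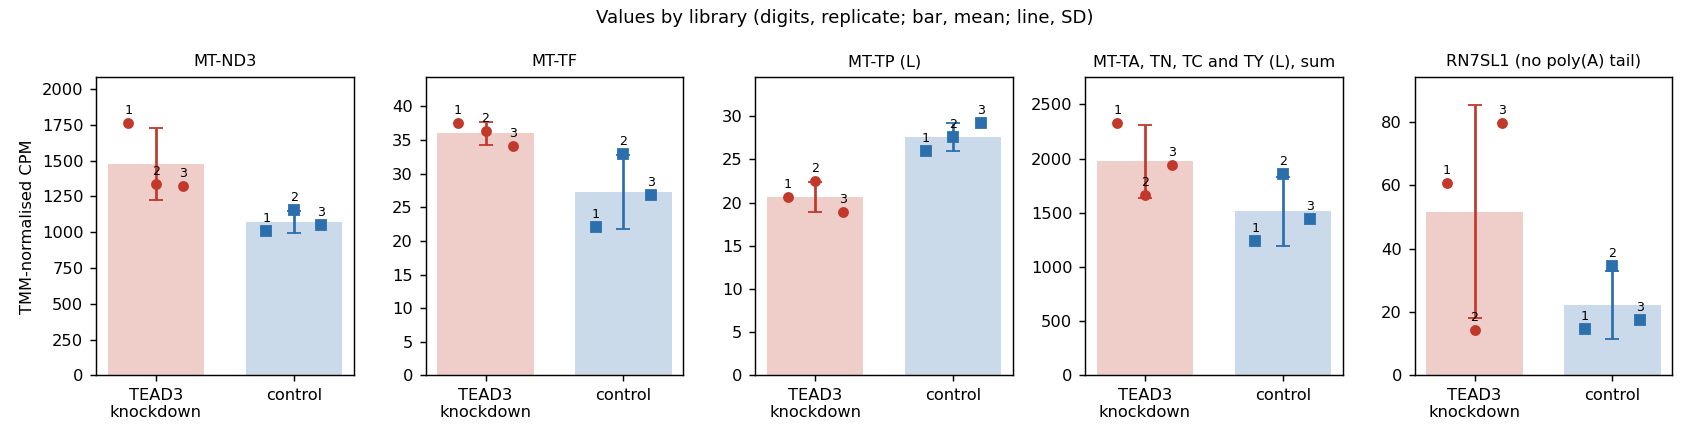
TMM-normalised CPM in each library for MT-ND3, MT-TF, MT-TP, the sum of MT-TA, MT-TN, MT-TC and MT-TY, and RN7SL1, with TEAD3 knockdown at the left and control at the right. Bars are means, lines are SD over 3 libraries and digits are replicate numbers. MT-ND3 and MT-TF were above every control in the knockdown and MT-TP below, while in the last 2 panels knockdown replicate 2 lay among or below the controls.

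The remaining tRNA rows were low, and 14 of the 22 stayed under 10 CPM in every library. MT-TL1, a heavy-strand leucine tRNA, was at 25.9 ± 5.02 CPM in the knockdown and 26.8 ± 5.26 CPM in controls, with a log2 fold change of -0.05. On the light strand, MT-TS1, opposite the end of the MT-CO1 transcript, was at 66.8 ± 7.04 CPM in the knockdown and 56.0 ± 8.18 CPM in controls (0.25, edgeR adjusted p = 0.367). MT-TE was at 6.23 ± 1.23 and 4.66 ± 1.51 CPM in knockdown and control (log2 fold change 0.42), and MT-TQ at 1.68 ± 0.139 and 1.40 ± 0.330 CPM (0.27). MT-TH, MT-TS2 and MT-TL2, neighbours between MT-ND4 and MT-ND5, had 4.71 ± 1.02, 3.53 ± 1.05 and 3.12 ± 1.11 CPM in the knockdown and 3.34 ± 1.85, 2.41 ± 1.35 and 2.19 ± 1.33 CPM in controls. Their log2 fold changes were 0.50, 0.56 and 0.51, and without control replicate 2 they were 1.03, 1.10 and 1.11, with edgeR adjusted p of at least 0.0738. Without control replicate 1 they were 0.21, 0.27 and 0.20. MT-TI (5.94 ± 1.88 and 3.99 ± 1.13 CPM in knockdown and control), MT-TT (7.89 ± 0.942 and 6.23 ± 1.47), MT-TG (4.59 ± 0.931 and 3.47 ± 1.01) and MT-TR (4.43 ± 0.436 and 3.50 ± 1.68) had log2 fold changes of 0.57, 0.34, 0.40 and 0.34. MT-TM (2.00 ± 0.207 and 1.62 ± 0.523 CPM), MT-TD (1.78 ± 0.380 and 1.53 ± 0.207), MT-TK (1.61 ± 0.232 and 1.21 ± 0.676) and MT-TW (0.768 ± 0.382 and 0.509 ± 0.111) had 0.30, 0.21, 0.42 and 0.59. Single libraries moved several of these values: over the left-out libraries the log2 fold change lay between 0.078 and 0.79 for MT-TR, 0.051 and 0.44 for MT-TM and 0.096 and 0.43 for MT-TQ, each lowest without control replicate 1 and highest without control replicate 2. It lay between 0.14 (without control replicate 3) and 0.96 (without control replicate 2) for MT-TK, and between 0.057 and 0.37 (without knockdown replicates 2 and 1) for MT-TD. The ranges were 0.29 to 0.82 for MT-TI, 0.25 to 0.72 for MT-TE, 0.22 to 0.66 for MT-TG, 0.19 to 0.53 for MT-TT and 0.35 to 0.96 for MT-TW. None of these rows was called, and control replicate 1 was the lowest of the 6 libraries for 18 of the 22 tRNA rows.

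Ratios taken within the mitochondrial counts compared strands and classes without any scaling between libraries. The log2 ratio of MT-ND6 to the 12 heavy-strand mRNAs was -6.44, -6.56 and -6.65 in knockdown replicates 1 to 3, against -6.56, -6.53 and -6.57 in control replicates 1 to 3. Its means differed by 0.0022. The MT-ND6 row is uncertain where strand was not used in the counting, so this ratio may not compare strands. The log2 ratio of the 2 rRNAs to the 12 heavy-strand mRNAs was -0.73, -1.05 and -0.72 in the knockdown and -0.74, -0.87 and -0.81 in controls, a difference of -0.03, and knockdown replicate 2 was the lowest library. The log2 ratio of MT-RNR1 to MT-RNR2 was -2.03, -2.05 and -2.04 in the knockdown and -2.19, -1.96 and -2.18 in controls, a difference of 0.07. The knockdown libraries lay within the range of the controls. The log2 ratio of the tRNA rows to the 13 mRNAs was -4.22, -5.00 and -4.50 in the knockdown and -5.03, -4.70 and -4.94 in controls, a difference of 0.32, with knockdown replicates 1 and 3 above every control. The log2 ratio of light-strand to heavy-strand tRNA rows was 4.51, 4.01 and 4.20 in the knockdown and 4.28, 4.15 and 4.09 in controls, a difference of 0.07. Its light-strand side was mostly MT-TA, MT-TN, MT-TC and MT-TY, with 90.5% and 89.4% of all tRNA counts in knockdown and control. Where strand was not used in the counting, this ratio, too, may not compare strands. The exact two-sided permutation p of the 5 ratios were 1, 1, 0.4, 0.3 and 0.8, and each was 1 after Benjamini-Hochberg adjustment over the 5.

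**Figure D4:**
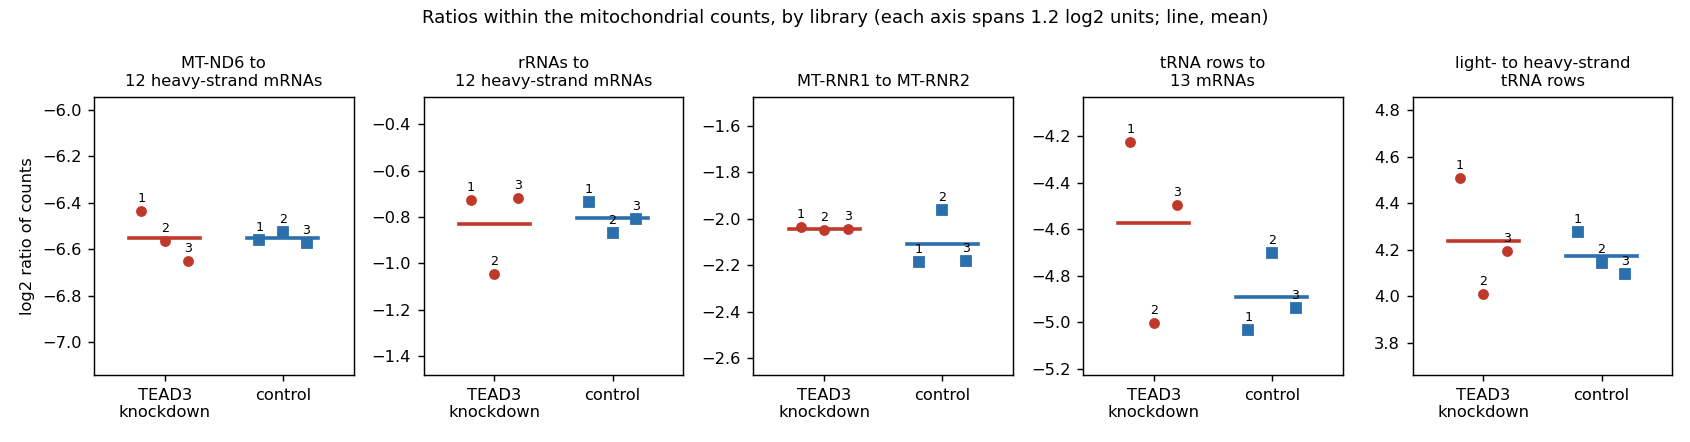
Log2 ratios of summed counts within the mitochondrial transcripts in each library, TEAD3 knockdown at the left and control at the right, with group means as lines and replicate numbers as digits. In each panel the groups overlapped, and the tRNA to mRNA ratio had the largest difference between means, 0.32.

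Copies of mitochondrial genes in the nuclear genome can take reads that belong to these transcripts, and how the counting treated such reads is not given in the sources used here. Of 20 listed copies, 11 were tested and 9 were above 0, beside 49.8% of all genes. None was called by edgeR or DESeq2, beside 0.655% and 5.97% of all genes. Before adjustment 0 had p under 0.05 by edgeR, beside 15.6% of all genes. The groups did not overlap for 1 higher and 0 lower of the 11, beside 11% and 10.6% of all genes. MTATP6P1 is 98.5% identical over 681 bases to MT-ATP6, and its level was 15.9% to 20.9% of that of MT-ATP6 in the 6 libraries. MTND2P28 is 98.4% identical to MT-ND2 over 1042 bases and was at 11% to 12% of its level, and MTCO1P12 is 98.6% identical to MT-CO1 over 1542 bases and was at 0.985% to 1.17%. These 3 were chosen after their values were seen. The smallest p among the copies were those of MTRNR2L10 (0.417, 0.484 and 0.168 CPM in the knockdown and 0.0915, 0.212 and 0 CPM in controls, edgeR adjusted p = 0.429), MTND1P23 (2.55 ± 0.385 and 2.03 ± 0.190 CPM in knockdown and control, 0.562) and MTND4P12 (1.53 ± 0.277 and 1.19 ± 0.122, 0.611). The levels of MT-ATP6 and MT-ND2 are therefore uncertain, by an amount that was not tested.

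Nuclear genes for the mitochondrial transcription and RNA machinery were compared in 5 lists, and none of their 73 tested genes was called by edgeR, beside 0.655% of all genes. DESeq2 called 2 of the 73, HSD17B10 as higher and ANGEL2 as lower, beside 5.97% of all genes. Of 10 transcription genes, 8 were above 0, with a median log2 fold change of 0.15, and p before adjustment was under 0.05 for 3 higher and 1 lower (8.15% and 7.43% of all genes). TEFM, the elongation factor, was at 21.0 ± 1.23 CPM in the knockdown and 15.8 ± 1.41 CPM in controls (0.41, edgeR adjusted p = 0.160). TFB1M, which methylates the small rRNA, was at 23.3 ± 1.15 and 18.7 ± 2.17 CPM (0.32, 0.258), and MRPL12, a ribosomal protein that also binds the polymerase, at 115 ± 11.4 and 94.6 ± 8.47 CPM (0.28, 0.263). TFAM, which packages and activates the genome and was named after its values were seen, was at 30.7 ± 0.536 CPM in the knockdown and 36.9 ± 3.27 CPM in controls (-0.27, edgeR adjusted p = 0.276). TFAM was below every control in each knockdown library, while TEFM and TFB1M were above. In all, the groups did not overlap for 3 higher and 1 lower of the 10, beside 11% and 10.6% of all genes.

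Of 22 genes of RNA processing and decay, 13 were above 0 (median 0.11), and p before adjustment was under 0.05 for 3 higher and 1 lower (8.15% and 7.43% of all genes). ANGEL2, a member of a deadenylase-like protein family, was at 25.9 ± 2.00 CPM in the knockdown and 38.6 ± 6.08 CPM in controls (-0.58, edgeR adjusted p = 0.0857). HSD17B10, a subunit of mitochondrial RNase P, was at 108 ± 11.2 and 84.1 ± 5.98 CPM (0.36, 0.157), and SLIRP at 32.8 ± 3.37 and 25.5 ± 3.08 CPM (0.36, 0.212). The groups did not overlap for 5 higher and 1 lower of the 22, these 3 among them, beside 11% and 10.6% of all genes. Of 17 genes of DNA replication and maintenance, 3 were above 0 (median -0.10), and 1 lower gene had p under 0.05 before adjustment (7.43% of all genes). The groups did not overlap for 0 higher and 4 lower of the 17, beside 11% and 10.6% of all genes. The gene with p under 0.05 was TK2, the mitochondrial thymidine kinase, at 47.6 ± 3.31 and 59.5 ± 6.16 CPM (-0.32, edgeR adjusted p = 0.205). POLG2, the accessory subunit of the mitochondrial DNA polymerase, had -0.29 (edgeR adjusted p = 0.398) and the nuclease EXOG -0.20 (0.474). Of 14 genes of rRNA and tRNA modification, 10 were above 0 (median 0.08) and 1, QTRT1, was higher with p under 0.05 before adjustment (8.15% of all genes). The groups did not overlap for 1 higher and 1 lower of the 14, beside 11% and 10.6% of all genes. QTRT1, a tRNA guanine transglycosylase subunit, NSUN4, an rRNA methyltransferase, and MRM2, another, had 0.30, 0.16 and -0.25 (edgeR adjusted p of 0.317, 0.465 and 0.486). Of 10 regulators of mitochondrial biogenesis, 7 were above 0 (median 0.0031), and p before adjustment was under 0.05 for 2 higher and 1 lower (8.15% and 7.43% of all genes). These were YY1 at -0.32, GABPA at 0.37 and the coactivator gene PPARGC1A at 0.53 (edgeR adjusted p of 0.162, 0.268 and 0.292). The groups did not overlap for 2 higher and 1 lower of the 10, beside 11% and 10.6% of all genes.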

How the data were processed

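The data are polyadenylated RNA libraries of 6 U251 samples, captured on oligo(dT) beads and strand-marked with dUTP, per the labels' protocols. The deposited values are raw counts, whole numbers for each gene. Per the submitters' processing notes, the genome build was GRCh38, and the tools include HISAT2 2.0.4, cutadapt 1.9, StringTie 1.3.4d, edgeR and DESeq2. The sources used here do not give the counting tool, annotation, strand setting or treatment of reads with several matches. Libraries of a group differed by more than sampling noise (chi-square over its degrees of freedom 21.3 to 73.0).

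Symbols, coordinates and lengths came from GENCODE release 29. All genes were fitted together in R 4.3.3 with edgeR 4.0.16 (quasi-likelihood test, two-sided, TMM, filterByExpr with a minimum of 10 counts, group as the only term, Benjamini-Hochberg adjustment over 17723 of 29520 genes with a count). SE and 95% intervals come from this fit, whose common biological coefficient of variation was 0.227. Levels are TMM-normalised CPM. Shares and log2 ratios, 1 value per library, were compared with an exact permutation test. The edgeR fit alone was run on simulated data, with recovery required only for changes larger than those of the mitochondrial transcripts. Alternatives were other scalings, filters, DESeq2 1.42.0, limma-voom (limma 3.58.1), a replicate block and leaving out each library. The loess correction for length and GC content (span 0.3, 13677 genes, values beyond its range set to the range) was chosen after seeing the data. All tRNA rows are shorter than the genes it was fitted on. The members and lists were chosen with earlier results of these data known. Named were all 37 members and, per list, called genes or else the 3 smallest p. Other named genes were chosen after their values were seen.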

Additional observations from a re-analysis of the deposited data

How the results depend on the processing

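The count of called mitochondrial transcripts, 0 of 37, was also 0 with DESeq2 size factors, library totals, scaling without mitochondrial rows or to the mitochondrial total, no filter, the stricter filter, limma-voom and the replicate block. It was 2 by DESeq2, 1 with the length and GC correction and between 0 and 1 without each library (1 without control replicate 2). Over all genes 116 were called, against 838 by DESeq2, 545 with the length and GC correction, 31 with no filter, 47 with scaling to the mitochondrial total, 63 with the replicate block and 20 to 589 without each library. Same-numbered libraries did not deviate together (correlations 0.0056, -0.0169 and 0.0083), and not every library correlated best with its own number. These values cannot show whether the samples were paired by design, which the labels do not state. With the replicate block the difference in mitochondrial share was 0.27 percentage points.

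With the length and GC correction the log2 fold changes turned to -0.12 for MT-RNR1, -0.089 for MT-RNR2, -0.036 for MT-ND1, -0.10 for MT-ND2, -0.072 for MT-CO1, -0.090 for MT-TD, -0.15 for MT-ATP8, -0.16 for MT-ATP6, -0.16 for MT-CO3, -0.00026 for MT-TR, -0.16 for MT-ND4L, -0.020 for MT-ND4, -0.20 for MT-ND6 and -0.022 for MT-CYB. Scaled to the mitochondrial total, MT-RNR2 was at -0.037 and MT-CO1 at -0.046. As means of log2 CPM, the MT-ND6 ratio differed by -0.051 and the ratio of light- to heavy-strand tRNA rows by -0.10. The cause of these turns was not tested.

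Without each library in turn, log2 fold changes that crossed 0 lay between -0.0031 and 0.029 for MT-RNR2, -0.21 and 0.067 for MT-TL1, -0.028 and 0.18 for MT-ND2, -0.10 and 0.094 for MT-CO1, -0.11 and 0.036 for MT-CO2, -0.033 and 0.17 for MT-ATP6, -0.15 and 0.26 for MT-ND4L, -0.072 and 0.21 for MT-ND4, -0.084 and 0.19 for MT-ND5, -0.042 and 0.15 for MT-ND6 and -0.0100 and 0.22 for MT-CYB. The difference in mitochondrial share lay between -0.0916 and 0.517 percentage points. The differences in log2 ratio lay between -0.054 and 0.052 for MT-ND6, -0.082 and 0.083 for the rRNAs, 0.031 and 0.14 for MT-RNR1 to MT-RNR2, 0.14 and 0.53 for the tRNA rows and -0.069 and 0.18 for light- to heavy-strand tRNA rows. Depth limits the low tRNA rows, where a library held as few as 21 counts.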

Other observations

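PRORP, the nuclease subunit of mitochondrial RNase P, spread widely within both groups, a feature chosen after its values were seen. It was at 19.6, 43.7 and 16.9 CPM in knockdown replicates 1 to 3, against 36.9, 9.75 and 18 CPM in control replicates 1 to 3 (log2 fold change 0.31, SE 0.435, edgeR adjusted p = 0.799). No such spread was seen in its partner subunits HSD17B10 (99.5 to 121 CPM in the knockdown and 77.6 to 89.4 CPM in controls) and TRMT10C (28.3 to 35.5 CPM in the knockdown and 23.6 to 32.4 CPM in controls).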
